A study of Mus musculus with 8 samples.

Results

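The genes described here encode the proteasome and its inducible form, the immunoproteasome, in mouse double positive thymocytes. The members were the probe sets whose single gene symbol in the platform annotation was Psma, Psmb, Psmc, Psmd or Psme and a number. This gave 40 genes, of 8251 genes with a probe set of a single symbol, measured by 51 of the 12422 probe sets on the array. Of the 51, 45 probe sets of 38 genes were bright enough to be tested, 4 of the genes inducible and 34 constitutive or other, and 6 probe sets were too dim. Psmc4 and Psmd2 had no tested probe set, and Psma8, Psmb11 and Psme2 had none with a single symbol, so Psme2, the partner of Psme1, is not reported by name among the results.

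Double positive thymocytes are immature T cells with both the CD4 and the CD8 coreceptor. The study engaged their T cell receptor with antibodies and measured total RNA on 8 arrays, 2 in each of 4 groups: control, overnight control, Valpha2 and Vbeta5, the last 2 named after variable segments of the receptor's alpha and beta chain. Each group has an array numbered 1 and an array numbered 2 in its title. The sources used here do not give strain, genotype, age, antibody clone, dose or time. They also do not say that the 2 arrays of a group came from separate animals or cultures. A p-value here reflects the scatter between the 2 arrays of a group, pooled over the 4 groups and moderated by that of other probe sets. This scatter may be technical.

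The proteasome is the barrel-shaped protease that degrades ubiquitin-tagged proteins. Its core particle has outer rings of alpha subunits, which gate the entrance, and inner rings of beta subunits, of which Psmb5, Psmb6 and Psmb7 cut peptide bonds. Interferon and immune cells bring in 3 substitutes, Psmb8 for Psmb5, Psmb9 for Psmb6 and Psmb10 for Psmb7, and an activator cap of Psme1 and Psme2, which together shift the peptides made for MHC class I. The regulatory particle on the ends of the core has ATPases (Psmc genes) that unfold the substrate. It also has ubiquitin receptors, such as Psmd4, and a lid (most Psmd genes) that removes ubiquitin. In the thymus, the peptides made by these proteases and shown on class I molecules are part of what developing T cells are tested on.

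The stretches before the transcription starts of the 4 inducible genes, and of the counterparts Psmb5 and Psmb6, are shown because the inducible genes shared the array pattern described next while their counterparts did not. They come from RefSeq (build GRCm38.p6), run 5′ to 3′ on the gene's strand and end at the base before the start; 34 of the 40 member genes had such a window, and Psmb7 had none. Capitals mark matches to any of 4 motifs on either strand.
Psmb8 (chr17:34197945-34198194, plus strand): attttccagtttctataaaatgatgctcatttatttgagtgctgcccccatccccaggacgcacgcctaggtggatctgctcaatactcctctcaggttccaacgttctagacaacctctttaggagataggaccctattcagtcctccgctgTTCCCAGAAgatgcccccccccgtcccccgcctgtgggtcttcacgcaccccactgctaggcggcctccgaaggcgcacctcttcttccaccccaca
Psmb9 (chr17:34187331-34187555, minus strand): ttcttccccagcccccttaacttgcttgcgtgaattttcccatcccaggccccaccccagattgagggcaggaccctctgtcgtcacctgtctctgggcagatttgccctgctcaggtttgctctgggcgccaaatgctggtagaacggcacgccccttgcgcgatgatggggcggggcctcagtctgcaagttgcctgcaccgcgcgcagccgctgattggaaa
Psmb10 (chr8:105938393-105938642, minus strand): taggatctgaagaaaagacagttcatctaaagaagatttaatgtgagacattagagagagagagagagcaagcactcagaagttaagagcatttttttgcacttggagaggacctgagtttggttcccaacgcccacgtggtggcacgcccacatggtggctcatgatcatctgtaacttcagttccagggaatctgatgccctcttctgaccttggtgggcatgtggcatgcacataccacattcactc
Psme1 (chr14:55578244-55578493, plus strand): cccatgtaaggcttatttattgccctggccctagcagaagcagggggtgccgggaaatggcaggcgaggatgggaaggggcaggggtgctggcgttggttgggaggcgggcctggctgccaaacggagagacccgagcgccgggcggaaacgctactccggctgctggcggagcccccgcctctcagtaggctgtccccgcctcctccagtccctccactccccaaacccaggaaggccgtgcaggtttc
Psmb5 (chr14:54617996-54618245, minus strand): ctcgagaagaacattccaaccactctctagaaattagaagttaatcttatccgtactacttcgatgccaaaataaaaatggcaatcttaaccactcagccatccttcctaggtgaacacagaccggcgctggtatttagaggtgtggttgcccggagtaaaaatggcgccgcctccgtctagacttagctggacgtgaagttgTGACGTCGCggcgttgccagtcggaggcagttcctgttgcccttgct
Psmb6 (chr11:70525107-70525356, plus strand): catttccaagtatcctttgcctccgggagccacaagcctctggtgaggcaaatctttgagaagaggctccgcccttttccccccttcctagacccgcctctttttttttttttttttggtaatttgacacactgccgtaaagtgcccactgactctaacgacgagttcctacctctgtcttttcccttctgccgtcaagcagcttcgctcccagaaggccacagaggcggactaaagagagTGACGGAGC

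The Psmb9 stretch is the whole interval of 225 bases between the start of Psmb9 and that of the peptide transporter gene Tap1, which is read from the opposite strand. The motifs were an IRF element (a pair of GAAA half-sites with NN between them), a GAS site bound by STAT factors (TTCNNNGAA), the kappaB motif and the core of the antioxidant response element (TGACNNNGC), each searched on both strands in the 250 bases before the start. A CCAAT box (CCAAT), searched the same way and not capitalized, was in 1 of the 4 inducible genes (Psmb9), 12 of the 30 others and 33.8% of windows. A GAS match was present in Psmb8 (TTCCCAGAA) and in 1 of the 4 inducible genes in all, against 0 of the 30 other member genes with a window and 7.02% of 32851 windows. IRF element matches were in 0 of the 4 and in 3 of the 30 (2.98% of windows), and kappaB matches in 0 and 6 (7.25%). The antioxidant response core, the letters of which are in the Psmb5 (TGACGTCGC) and Psmb6 (TGACGGAGC) stretches, was in 0 of the 4 and 5 of the 30 (10.2%). A match is a description of letters, and no match says only that the letters are not in this window.

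Signals are linear and normalized by the authors; log2 differences are of log2(signal + 17), compared with limma and adjusted by Benjamini-Hochberg over 8281 probe sets, with a threshold of 0.05. The Gapdh control probe sets gave a sign of RNA quality. Their 3' signal over their 5' signal, on the log2 scale, was highest on the arrays numbered 1 outside the control, at 1.72 (Valpha2), 0.95 (overnight control) and 0.48 (Vbeta5), while the remaining 5 arrays lay between -0.28 and -0.09. The defining double positive markers Cd4, Cd8a, Cd8b1, Rag1, Rag2 and Dntt were bright on the control arrays, with the brightest probe set of each between 516.3 (Rag2) and 11120.9 (Rag1). In bulk RNA, fewer cells of a type and less RNA per cell cannot be told apart.

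The 4 inducible genes were all brighter on both Vbeta5 arrays than on each of the other 6 arrays. For Psmb8, which replaces Psmb5, the signal was 5169.9 and 5461.5 on Vbeta5 arrays 1 and 2, 3251.0 and 3102.9 in the overnight control, 3497.9 and 3937.6 with Valpha2, and 3574.4 and 3050.7 in the control. The lowest Vbeta5 value thus lay above the highest of the rest. For Psmb9, which replaces Psmb6, it was 1189.2 and 1442.0 with Vbeta5, 520.1 and 547.7 in the overnight control, 521.7 and 844.7 with Valpha2, and 894.5 and 747.0 in the control. The overnight control was the lowest group mean of this gene, and of the Valpha2 arrays 1 lay below both control arrays and 1 between them.

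For Psmb10, which replaces Psmb7, the signal was 1496.2 and 1642.4 with Vbeta5, 850.0 and 687.9 in the overnight control, 770.5 and 886.8 with Valpha2, and 1078.9 and 750.7 in the control. Here the 3 groups other than Vbeta5 overlapped. For Psme1, the alpha subunit of the PA28 cap, it was 2356.5 and 2179.3 with Vbeta5, 1217.8 and 1199.0 in the overnight control, 1702.2 and 1308.3 with Valpha2, and 1523.1 and 1174.5 in the control. Both Vbeta5 arrays stood above the brightest Valpha2 array. A second Psme1 probe set, too dim to be tested, was also highest with Vbeta5, at 44.6 and 26.7 against 2.8 to 21.5 elsewhere.

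**Figure D1:**
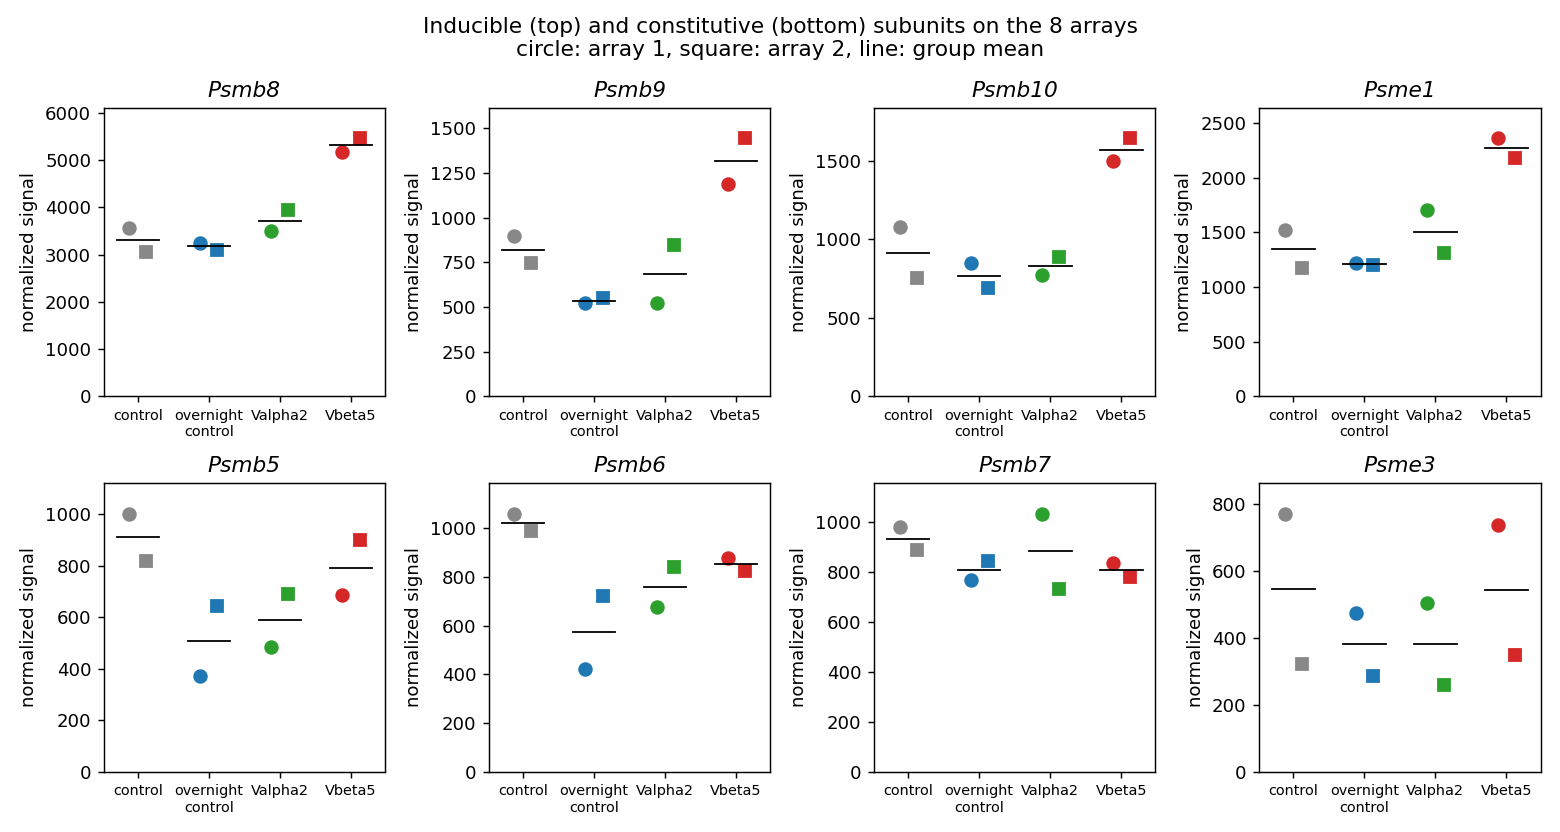
Normalized signal of 8 subunits (y axis, linear, from 0) by group (x axis), with 1 panel per gene; the circle is array 1, the square array 2 and the line the group mean (n = 2). The inducible genes in the top row have both Vbeta5 arrays above the other 6, while Psmb5, Psmb6, Psmb7 and Psme3 in the bottom row do not.

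Having both Vbeta5 arrays above the other 6 was found in 5 of the 45 member probe sets and in 6.1% of all tested probe sets. The 5 were the inducible genes and Psma1, an alpha ring gene named after its values were seen, whose margin was narrow: 357.9 and 354.9 with Vbeta5 against at most 354.4 elsewhere. The opposite order, with both Vbeta5 arrays lowest, was found in 0 of the 45, against 5.51% of all probe sets.

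In Vbeta5 against the overnight control, which asks what changes when the beta chain is engaged, no member passed the test by limma (0 of 45 probe sets, against 0.616% of all tested). At an unadjusted p under 0.05 there were 6 of 45 members, against 8.49% of all. Higher were 6 of the 45 (4.43% of all) and lower 0 (4.06%). Psmb9 came closest: 1316 ± 179 (SD, n = 2) against 533.9 ± 19.5, a 2.41-fold difference (log2 difference 1.27 ± 0.27 SE, 95% interval 0.68 to 1.86, limma adjusted p = 0.0794). By unadjusted p it ranked 73 of the 8281 probe sets. Psmb10 was at 1569 ± 103 against 769 ± 115 (1.02 ± 0.24 SE, 0.48 to 1.56, limma adjusted p = 0.125).

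Psme1 was at 2268 ± 125 against 1208 ± 13.3 (log2 difference 0.90 ± 0.23 SE, 95% interval 0.40 to 1.40, limma adjusted p = 0.158). Psmb8, the brightest of the 4 probe sets, was at 5316 ± 206 against 3177 ± 105 (0.74 ± 0.20 SE, 0.29 to 1.18, limma adjusted p = 0.202). The 4 differences had a median of 0.96, beside a median of -0.01 over the 6094 genes tested, and it lay between 0.88 and 1.04 when any 1 array was left out.

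The constitutive catalytic genes overlapped more across the 4 groups. Between Vbeta5 and the overnight control alone, Psmb6 and the brighter Psmb5 probe set did not overlap and were higher with Vbeta5. Psmb5 had a signal of 685.1 and 897.8 with Vbeta5, 370.4 and 641.6 in the overnight control, 485.6 and 688.9 with Valpha2, and 1000.6 and 818.4 in the control. It differed between Vbeta5 and the overnight control by 0.67 ± 0.31 SE on the log2 scale (95% interval -0.02 to 1.35, limma adjusted p = 0.611). Its highest array was a control array, unlike that of Psmb8, which replaces it. A second, dimmer Psmb5 probe set ran otherwise, at 220.4 and 197.5 with Vbeta5, 275.7 and 126.2 in the overnight control, 158.1 and 142.9 with Valpha2, and 78.9 and 99.4 in the control, so that the 2 probe sets of this gene disagree on whether the control is the highest or the lowest group.

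Psmb6 had a signal of 879.3 and 823.1 with Vbeta5, 422.0 and 722.2 in the overnight control, 676.7 and 840.8 with Valpha2, and 1058.2 and 986.9 in the control. Both control arrays were the highest of the 8. Its difference between Vbeta5 and the overnight control was 0.61 ± 0.27 SE (95% interval 0.00116 to 1.21, limma adjusted p = 0.587). Psmb7 was at 838.7 and 782.1 with Vbeta5 and at 769.7 and 844.0 in the overnight control, with 1033.4 and 734.4 for Valpha2 and 979.4 and 889.7 for the control. The Psmb7 groups of Vbeta5 and overnight control overlapped.

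Psme3, the PA28 gamma activator of the nucleus, was at 737.0 and 349.8 with Vbeta5, 476.5 and 285.4 in the overnight control, 506.4 and 260.9 with Valpha2, and 771.4 and 321.4 in the control. Its array 1 was brighter than its array 2 in all 4 groups, and the groups overlapped. Psme4, the PA200 activator, was at 288.4 and 532.3 with Vbeta5 against 371.2 and 628.6 in the overnight control, again with overlap.

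Each inducible gene was set beside its counterpart by the difference of their log2 changes from the control mean, which compares changes and not levels. Psmb10 less Psmb7 was 0.87 and 1.11 on Vbeta5 arrays 1 and 2, against -0.36 to 0.32 on the other 6. Psmb9 less Psmb6 was 0.74 and 1.11, against -0.08 to 0.61. These 2 pairs therefore stood highest on both Vbeta5 arrays. Psmb8 less Psmb5, by the brighter Psmb5 probe set, did not. It was 1.04 and 0.73 with Vbeta5, but 1.23 on overnight control array 1 and 0.96 on Valpha2 array 1. The dimmer Psmb5 probe set differed by a larger ratio than Psmb8, at 78.9 and 99.4 in the control and 220.4 and 197.5 with Vbeta5. The sign of this pair on the Vbeta5 arrays thus depends on the probe set. Psme1 less Psme3 also overlapped, at 0.26 and 1.19 with Vbeta5 and 0.86 on Valpha2 array 2. These differences between genes were not tested.

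**Figure D2:**
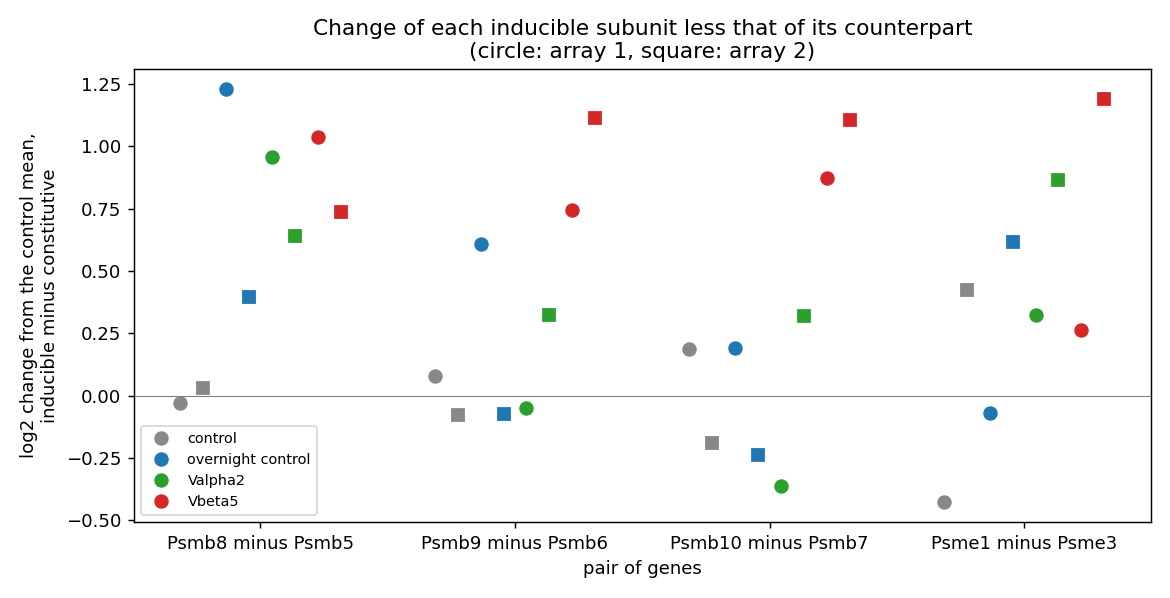
Log2 change from the control mean of each inducible gene less that of its constitutive counterpart (y axis) for 4 pairs (x axis); colour gives the group, the circle array 1 and the square array 2. Each gene is shown by its brightest tested probe set. Vbeta5 is highest on both arrays for Psmb9 less Psmb6 and Psmb10 less Psmb7, and not for the other pairs.

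Outside the inducible genes, differences in Vbeta5 against the overnight control were smaller. The 34 constitutive and other genes had a median of 0.22, with 28 of 34 above 0 (25 of 34 under quantile normalization), beside 48.8% of all tested probe sets. Both Vbeta5 arrays lay above both overnight control arrays in 9 of the 34 (26.5%) and in 15.9% of all probe sets, and below them in 1 of the 34 (Psmc6) and 15.2% of all. Without overnight control array 1 the median was 0.03, and without overnight control array 2 it was 0.36. The alpha ring genes, 7 measured, had a median of 0.27, or 0.05 without overnight control array 1. Psma7 was at the top of the alpha ring, at 856.1 and 1460.1 against 565.2 and 1079.4 (0.51 ± 0.37 SE, limma adjusted p = 0.848), where the arrays overlapped. Psma5, the lowest of the ring in this comparison, was at 624.1 and 673.6 against 663.6 and 633.2.

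Of the 4 beta ring genes that do not cut, Psmb3 differed most, at 1601.4 and 1707.1 with Vbeta5 against 1082.6 and 1325.3 in the overnight control (0.46 ± 0.20 SE, limma adjusted p = 0.578). The groups of Psmb3 did not overlap, although both control arrays, at 1872.8 and 1757.5, were higher still. Psmb1, on the other side, was at 797.4 and 1194.3 against 933.7 and 1175.1 by its brighter probe set, and at 406.8 and 428.4 against 670.2 and 423.8 by another. The bright Psmb4 probe set was at 1995.8 and 2392.0 against 1957.5 and 2278.7, and a dim one at 81.0 and 37.0 against 102.6 and 21.2. The 5 measured ATPase genes of the base had a median of 0.21, or 0.02 without overnight control array 1. Among them Psmc6 was slightly lower with Vbeta5, at 2450.4 and 2413.5 against 2601.8 and 2687.6 (-0.12 ± 0.20 SE, limma adjusted p = 0.992). Psmc1 was at 493.0 and 620.7 against 276.5 and 598.6. The 3 Psmc3 probe sets disagreed in sign: the brightest was at 859.8 and 754.0 against 500.1 and 736.1, the next at 376.0 and 474.1 against 444.7 and 467.1, and the dimmest at 212.9 and 157.9 against 192.0 and 235.2.

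The scaffold gene Psmd1 was at 403.2 and 535.9 with Vbeta5 against 387.7 and 326.8 (0.37 ± 0.28 SE, limma adjusted p = 0.858). The ubiquitin receptor gene Psmd4 was at 1476.8 and 1473.3 against 887.5 and 1765.1, so the overnight control arrays lay on either side of Vbeta5. The 8 lid genes had a median of 0.17, which was -0.11 without overnight control array 1. Its highest gene was Psmd11, at 1196.3 and 951.2 against 536.7 and 1187.1, and its lowest Psmd6, at 640.3 and 966.8 against 844.1 and 912.6, both with overlap. Of the 3 assembly chaperones of the regulatory particle, Psmd5 was at 286.5 and 406.4 with Vbeta5 against 386.9 and 442.4 (-0.27 ± 0.28 SE, limma adjusted p = 0.951), and Psmd10 at 92.3 and 213.5 against 78.8 and 150.9.

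**Figure D3:**
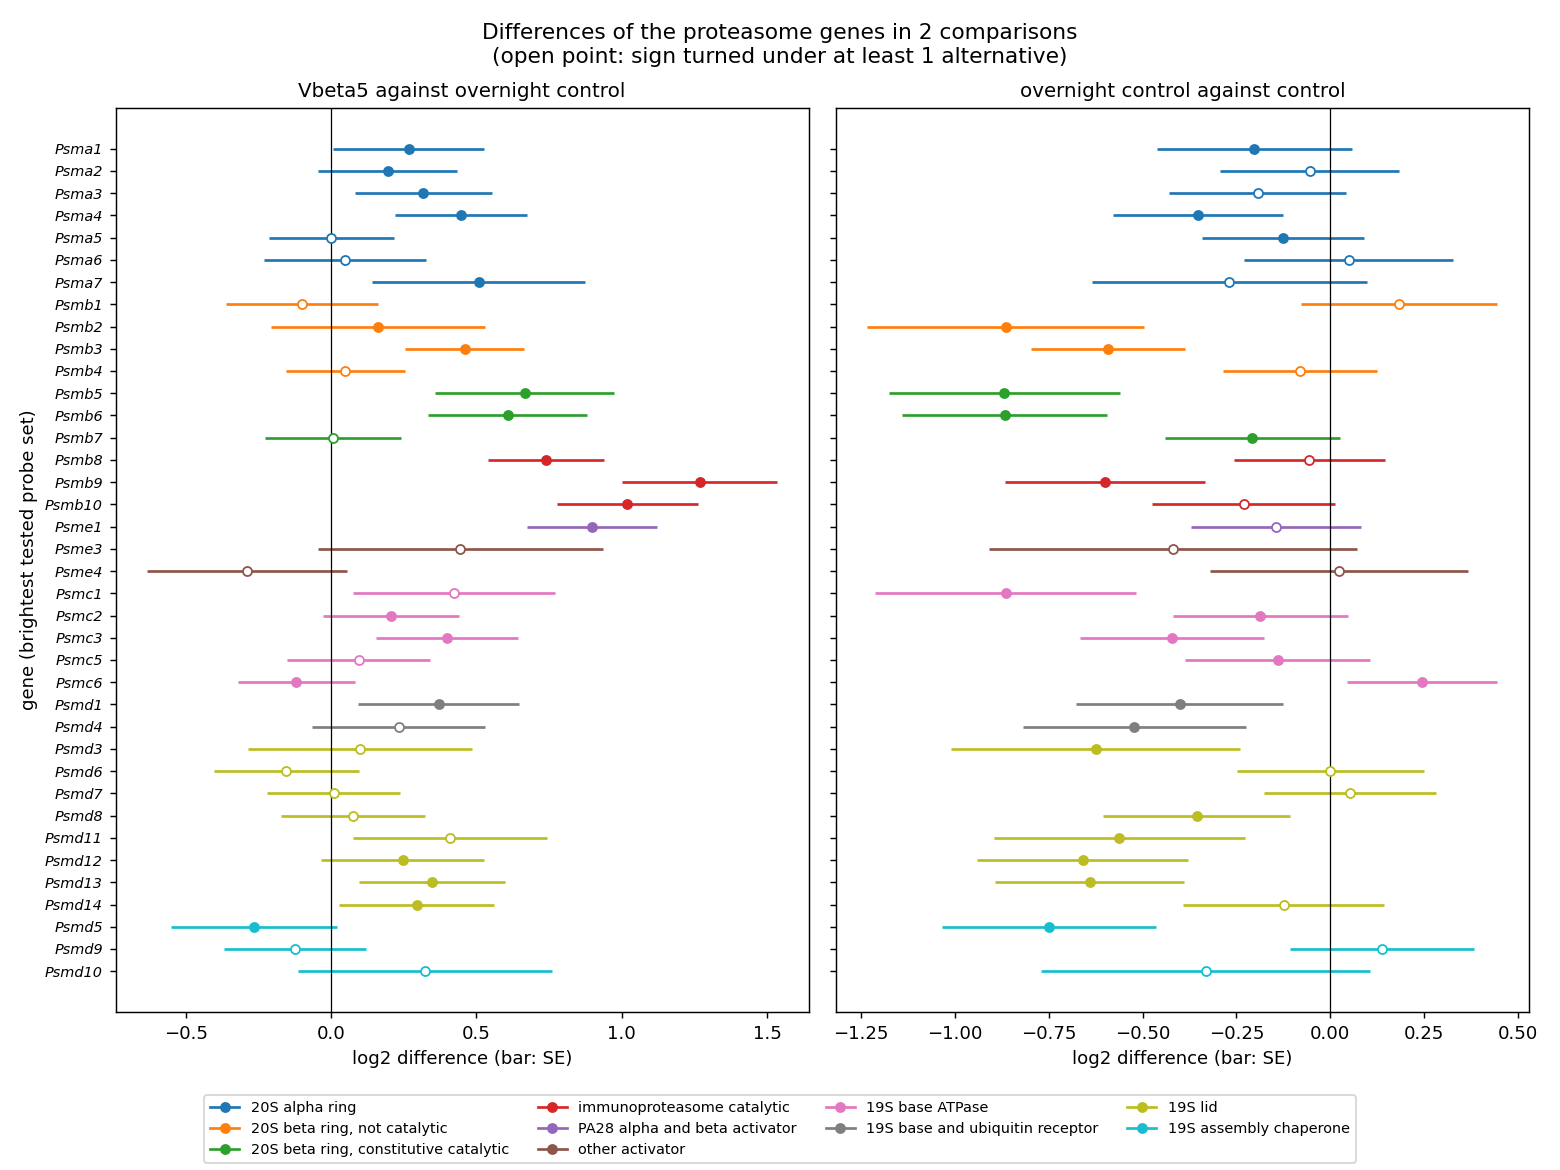
Log2 difference with its SE (x axis) for each of the 38 tested genes by its brightest tested probe set (y axis), coloured by role, in Vbeta5 against overnight control (left) and overnight control against control (right); open points, 17 on the left and 16 on the right, turned sign under at least 1 alternative. The inducible genes are the 4 farthest to the right on the left, and Psmb5, Psmb6, Psmc1 and Psmb2 the 4 farthest to the left on the right; none passed the threshold in either comparison.

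In Valpha2 against the overnight control, the same question for the alpha chain, no member passed (0 of 45, against 0.0% of all probe sets). At an unadjusted p under 0.05 the count by limma was 0 of 45, against 1.62% of all (0.749% higher and 0.869% lower). The arrays did not overlap and were higher in 11 of the 45 (10.5% of all) and lower in 2 (10.2%). Psmb8 was higher on both Valpha2 arrays, by 0.22 ± 0.20 SE (95% interval -0.22 to 0.67), and so was Psme1, by 0.30 ± 0.23 SE (-0.20 to 0.80). The smallest p-values belonged to Psmb3 (0.38 ± 0.20 SE), the lid gene Psmd12 (0.47 ± 0.28 SE) and Psmb6 (0.44 ± 0.27 SE), each with a limma adjusted p of 1. These intervals do not show that the groups are alike.

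The 34 constitutive and other genes had a median of 0.17 in this comparison, with 26 of 34 above 0 (47.0% of all probe sets), and the 4 inducible genes one of 0.26. Without overnight control array 1 the former was -0.03, and without Valpha2 array 2 the latter was 0.07. Since Valpha2 and Vbeta5 were compared with the same overnight control arrays, a low value there raises both.

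Vbeta5 against Valpha2 compares the antibodies directly, without the overnight control; clone and dose cannot be told apart from the chain engaged. No member passed (0 of 45, against 0.278% of all probe sets), and 4 of 45 had an unadjusted p under 0.05 (8.19% of all), 4 of them higher (4.08%) and 0 lower (4.11%). These 4 were the inducible genes. The arrays did not overlap and were higher in 11 of the 45 (21.8% of all) and lower in 3 (18.6%). Psmb9 differed by 0.96 ± 0.27 SE (95% interval 0.37 to 1.55, limma adjusted p = 0.256) and Psmb10 by 0.91 ± 0.24 SE (0.37 to 1.45, limma adjusted p = 0.238). Psme1 differed by 0.60 ± 0.23 SE (limma adjusted p = 0.465) and Psmb8 by 0.52 ± 0.20 SE (limma adjusted p = 0.494).

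The median of the 4 inducible genes between the antibodies was 0.75, and 0.70 to 0.80 when any 1 array was left out. The 34 constitutive and other genes had a median of 0.03, with 19 of 34 above 0, beside 52.3% of all probe sets. Both medians rest on 2 arrays a group. Psmb5 was at 0.43 ± 0.31 SE (95% interval -0.25 to 1.11, limma adjusted p = 0.816).

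The overnight control against the control compares the groups whose titles name no receptor segment. Time and handling cannot be told apart here. Most constitutive genes were lower in the overnight control, but no member passed (0 of 45, against 0.181% of all probe sets). An unadjusted p under 0.05 was found for 10 of 45 members (9.0% of all), 9 lower (5.0%) and 1 higher (4.0%), the dim Psmb5 probe set. Both overnight arrays lay below both control arrays in 16 of the 34 constitutive and other genes (47.1%), against 16.3% of all probe sets. They lay above both control arrays in 2 of the 34 (5.88%), against 21.6% of all probe sets. The log2 difference was above 0 in 6 of the 34, against 58.6% of all probe sets. Psmb6 differed by -0.87 ± 0.27 SE (95% interval -1.47 to -0.26, limma adjusted p = 0.338) and Psmb5 by -0.87 ± 0.31 SE by its brighter probe set (limma adjusted p = 0.439), with 0.95 ± 0.39 SE by the dim one.

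Psmb3 differed by -0.59 ± 0.20 SE (limma adjusted p = 0.417) and Psmd5 by -0.75 ± 0.28 SE (limma adjusted p = 0.485). Psmd5 was at 740.8 and 674.8 in the control, 386.9 and 442.4 in the overnight control, 301.3 and 457.2 with Valpha2, and 286.5 and 406.4 with Vbeta5, so the control stood above all 6 other arrays. The same order held for Psmb3, Psmb6, Psmc1, Psmd4 and Psmd13, which are named after their values were seen: 6 of the 45 probe sets in all, against 6.67% of all tested. Psmb2, also taken up after its values were seen, was at 1426.6 and 558.4 in the control and at 498.8 and 469.2 in the overnight control, so its gap rests on control array 1. Among the inducible genes, Psmb9 differed by -0.60 ± 0.27 SE (limma adjusted p = 0.55), and the arrays of the other 3 overlapped those of the control.

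The lower median came mostly from 1 array, although both overnight arrays lay below both control arrays in 16 of the 34 genes. Relative to the control mean, the median of the 34 genes was -0.44 on overnight control array 1, with 31 of 34 genes below it, and -0.05 on overnight control array 2, with 22 of 34. On the Valpha2 arrays it was -0.04 and -0.10, and on the Vbeta5 arrays -0.18 and -0.03. The median over all genes ran from 0.03 to 0.09 on these 6 arrays. The log2 of the Gapdh 3' over 5' signal was 0.95 on overnight control array 1. It was highest, at 1.72, on Valpha2 array 1, where the median of the 34 genes was -0.04. The part of RNA quality in the result was not tested. The median difference of the 34 genes, overnight control less control, was -0.30 with both arrays and -0.05 without overnight control array 1.

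**Figure D4:**
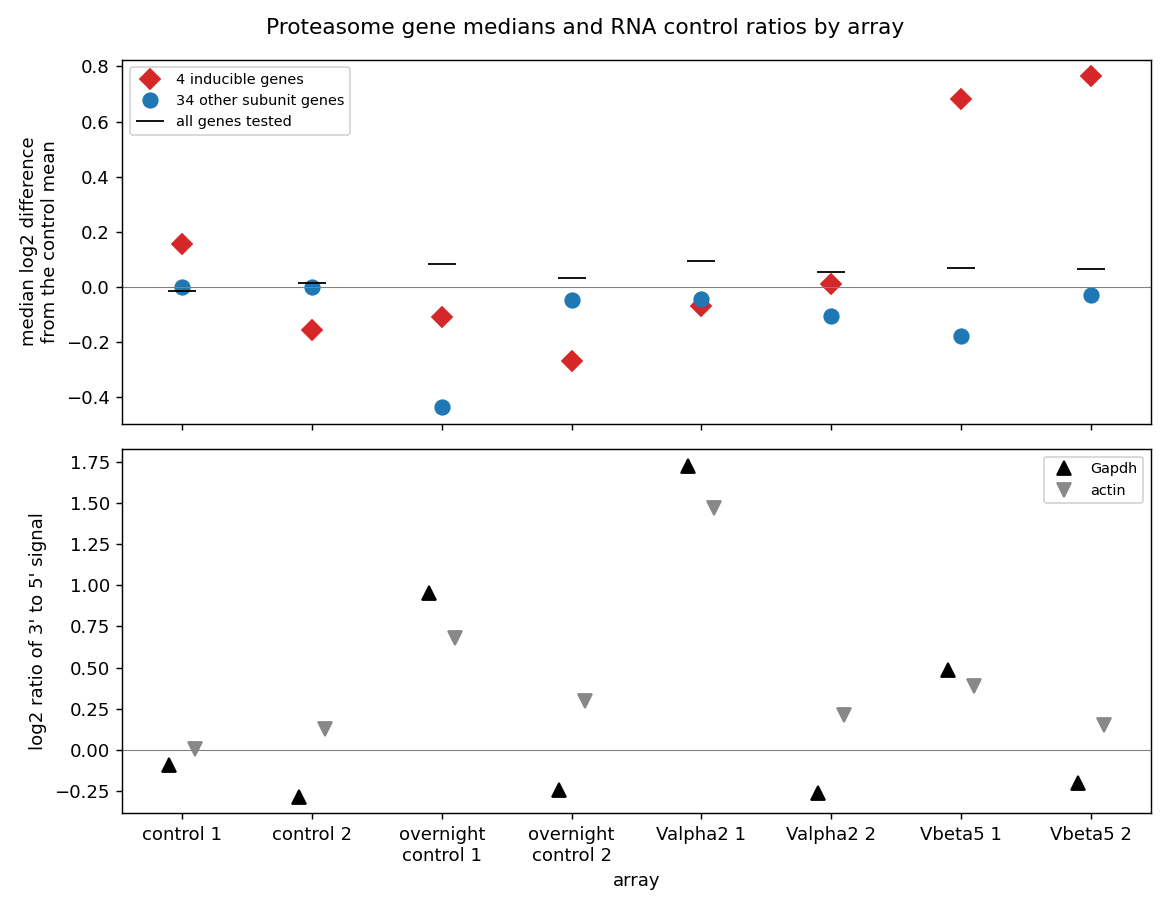
Upper panel: median log2 difference from the control mean (y axis) on each array (x axis) for the 4 inducible genes, the 34 other subunit genes and all genes tested. Lower panel: 3' over 5' signal of the Gapdh and actin controls, on the log2 scale. The inducible median is 0.68 and 0.76 on the Vbeta5 arrays and at most 0.16 elsewhere, and the lowest value of the other subunits, -0.44, is on overnight control array 1.

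Among other genes of peptide supply to class I and its interferon control, 13 of a list of 20 were tested. In Vbeta5 against the overnight control 1 rose, 0 fell and 12 did not pass, with a median of 0.40. Of all tested probe sets, 0.616% passed in either direction. The gene that rose was Irf1, a transcription factor that drives the inducible subunits in the interferon response. It was at 1063.3 and 1365.9 with Vbeta5, 332.4 and 236.2 in the overnight control, 200.8 and 503.3 with Valpha2, and 371.2 and 361.5 in the control, with both Vbeta5 arrays above the rest (log2 difference 2.04 ± 0.38 SE, limma adjusted p = 0.0463). Its adjusted p lay between 0.00333 and 0.428 over 18 alternatives and under the threshold in 6 of them. Leaving out any 1 of the control, overnight control or Vbeta5 arrays ended the call, with a limma adjusted p of 0.0886 to 0.428.

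Irf9, which joins STAT proteins in the type I interferon response, was at 817.5 and 1220.5 with Vbeta5, 574.1 and 404.6 in the overnight control, 927.1 and 786.3 with Valpha2, and 314.6 and 339.0 in the control. It was higher than in the overnight control with either antibody, by 1.03 ± 0.27 SE with Vbeta5 (limma adjusted p = 0.194) and by 0.80 ± 0.27 SE with Valpha2 (limma adjusted p = 1), and the arrays of the antibodies overlapped. Tapbp, which bridges the peptide transporter to class I, differed between Vbeta5 and the overnight control by 0.77 ± 0.22 SE (limma adjusted p = 0.239). Among the lower genes were the interferon gamma receptor chains Ifngr1 (-0.47 ± 0.23 SE, limma adjusted p = 0.65) and Ifngr2 (-0.52 ± 0.42 SE, limma adjusted p = 0.879). Tap2, the partner of Tap1, was at 1278.4 and 1499.5 with Vbeta5 against 1312.0 and 1797.1. Tap1, taken up for its shared interval with Psmb9, was at 320.4 and 342.4 with Vbeta5, 300.5 and 194.7 in the overnight control, 171.3 and 193.9 with Valpha2, and 178.6 and 187.1 in the control. Both Vbeta5 arrays were the highest, overnight control array 1 was close behind, and the difference was 0.43 ± 0.30 SE (limma adjusted p = 0.845). In Valpha2 against the overnight control, 0 of the 13 passed.

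Of 28 genes of proteasome assembly, control and ubiquitin delivery, 20 were tested and 0 passed in any of the 4 comparisons; the median with Vbeta5 against the overnight control was 0.07. The smallest p among the higher genes was that of Pomp, the chaperone that builds the beta ring, at 1512.7 and 1857.0 with Vbeta5, 1064.6 and 997.6 in the overnight control, 1391.7 and 1684.9 with Valpha2, and 983.6 and 1554.3 in the control (0.69 ± 0.26 SE, limma adjusted p = 0.437). The Vbeta5 arrays of Pomp overlapped those of Valpha2 and of the control. Zfand5 (0.71 ± 0.35 SE) and Txnl1 (0.48 ± 0.31 SE), which bind the proteasome, followed. Among the lower genes were the nuclear import adaptor Akirin2 (-0.46 ± 0.23 SE), the ubiquitin shuttle Ubqln1 (-0.62 ± 0.34 SE) and the deubiquitinating enzyme Uchl5 (-0.49 ± 0.36 SE).

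Markers of other cells moved with the inducible genes in part. The summed signal of 10 dendritic cell and MHC class II markers was 2286.9 to 2385.6 on the Vbeta5 arrays, 1334.8 to 1340.0 with Valpha2, 1095.6 to 2362.1 in the overnight control and 1091.0 to 1094.7 in the control. Of the 13 probe sets of that list, 3 had both Vbeta5 arrays above the other 6, beside 6.1% of all tested. These were H2-Ab1, too dim to be tested, at 65.8 and 88.0 against at most 38.5, H2-Eb1, at 222.4 and 233.0 against at most 178.3, and H2-DMa, at 1115.7 and 1012.2 against at most 855.8 by its brighter probe set. H2-Aa was at 10.0 to 24.6 on all 8 arrays. Itgax overlapped, at 96.9 and 68.5 with Vbeta5 against 14.4 to 150.4, as did the brighter Flt3 probe set, at 362.3 and 386.4 against 180.1 to 612.0. The erythroid (Klf1) and fibroblast and endothelium (Dcn, too dim to be tested) lists each had 1 probe set with both Vbeta5 arrays highest. So did the double positive list, by a Ly6d probe set too dim to be tested, at 53.8 and 17.5 with Vbeta5. The brighter Ly6d probe set ran the other way, at 417.6 and 421.4 with Vbeta5 against 1219.5 to 1611.9 elsewhere. The sum of 12 macrophage markers was 1009.1 to 1056.8 with Vbeta5 and 494.4 to 1352.3 elsewhere, and 0 of its 17 probe sets had both Vbeta5 arrays above the other 6. Among them Ctss was at 98.7 and 244.0 with Vbeta5 and at 25.4 to 112.4 elsewhere, and Lyz2 at 11.6 or less on every array. B cell markers (8 on the array) summed to 2753.2 to 3393.5 with Vbeta5 and 4047.0 to 5493.6 elsewhere. Most of this sum was 1 Ighm probe set, at 2920.4 and 2207.0 with Vbeta5 and 3483.1 to 4490.0 elsewhere. Of the 26 B cell probe sets, 4 (Cd79b, Blnk and Ighm) had both Vbeta5 arrays below the other 6, beside 5.51% of all tested. None, 0 of the 26, had both above, and Cd79a overlapped, at 93.6 and 147.5 against 19.4 to 170.9. A second tested Blnk probe set also overlapped, at 86.6 and 39.8 with Vbeta5 against 27.0 to 80.6 elsewhere. The 12 measured double positive markers summed to 22628.3 and 39919.2 with Vbeta5 and to 59050.3 to 76763.1 elsewhere. By limma, 3 of the 12 fell with Vbeta5 against the overnight control, beside 0.616% of all tested probe sets passing in either direction. Of the 17 double positive probe sets, 10 had both Vbeta5 arrays below the other 6, beside 5.51% of all tested. Granulocyte markers (8) summed to 439.7 to 449.3 with Vbeta5 and 199.2 to 779.5 elsewhere, and fibroblast and endothelium markers (8) to 939.4 to 1242.2 and 580.0 to 1747.8. The part of these shifts in the result was not tested.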

How the data were processed

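Total RNA was measured on 8 arrays. The authors deposited 1 table with an intensity per probe set and array, normalized per the labels; no source used here gives the software, the method or detection calls. Control probe sets (66 of 12488) were left out, and log2(signal + 17) was taken, 17 being the 20th percentile of the positive values, so fold changes of dim probe sets are understated. The dimmest 33.3% were left out, and 8281 were tested with limma 3.58.1 in R 4.3.3: group means fitted over the 8 arrays and variances moderated with a trend on intensity (residual degrees of freedom 4, prior 6.328). The number of arrays limits the precision. A gene's median used its brightest tested probe set. Gene names are those of the platform annotation, with symbols brought up to date from RefSeq (GRCm38.p6); 10833 probe sets had 1 symbol, 396 several and 1193 none. The code was tested on simulated data.

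The members and lists were chosen with earlier results of these data known. Named are the inducible genes and counterparts in every comparison, members past the threshold, the highest and lowest of each role with Vbeta5, genes whose probe sets differed in sign, the 3 smallest p-values where none passed, and from the pathway lists those past the threshold or the 3 smallest p-values each way. Of 54 pairs of a named probe set and a comparison, 22 turned sign under an alternative, and the text gives their signals only, with the differences plotted as open points. Alternatives were other scalings, offsets, filters and variance models, a replicate block, the 4 arrays compared, each array left out, and the 3 arrays numbered 1 other than control left out.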

Additional observations from a re-analysis of the deposited data

How the results depend on the processing

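No member passed the threshold in any comparison, and the count stayed at 0 under every alternative run but 1. With the array number as a replicate block, 2 probe sets passed in Vbeta5 against the overnight control, Psmb9 (limma adjusted p = 0.028) and Psme1 (0.0479). Same-numbered arrays deviated together at r = 0.104 to 0.345 across probe sets, but with only 2 numbers and no label the pairing stays unknown. Of the 54 named differences, 22 turned sign under an alternative. The other 32 were printed because they did not, so their direction shows nothing of stability, and over their 576 alternative values the threshold was crossed in those 2 cases. The pathway gene Tap2 had a difference of 0.0767 in Vbeta5 against the overnight control without overnight control array 2, and its lowest, when array 1 was left out, was -0.37.

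The median of the constitutive and other genes moved by more than the spread between arrays in Vbeta5 against the overnight control without overnight control array 1 (0.0285 to 0.36 over the arrays left out), and in Valpha2 against the overnight control (-0.0285 to 0.32). Leaving out the 3 arrays numbered 1 other than control gave 0.00216 in the latter and -0.0486 in overnight control against control, where the range was -0.44 to -0.0486. The inducible median ranged from 0.0745 to 0.27 in Valpha2 against the overnight control and from -0.41 to 0.0333 in overnight control against control. Shifting arrays to a common median moved the median of all genes by -0.23 in overnight control against control, and with it the constitutive median to -0.53 and the inducible to -0.41. Over the whole array, the 51 calls in Vbeta5 against the overnight control became 28 with common medians, 28 with only the 4 arrays, 0 without the variance trend, 124 with the replicate block and 144 without the 3 arrays numbered 1. Leaving out a Vbeta5 array gave 26 (array 1) and 0 (array 2), and leaving out an overnight control array gave 18 (array 1) and 31 (array 2). The 23 in Vbeta5 against Valpha2 became 0, 0, 0, 90 and 41, and 0 without Valpha2 array 1, Vbeta5 array 2 or either control array. The 15 in overnight control against control became 31 with only the 4 arrays, 0 without the trend, 99 with the replicate block and 69 without the 3 arrays, while leaving out an overnight control array gave 0 (array 1) and 119 (array 2), and either control array 0. The 0 in Valpha2 against the overnight control became 1 without Valpha2 array 2. The cause of these shifts was not tested beyond the arrays named. No detection calls were used, so a low signal has no separate background.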

Other observations

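Probe sets that the annotation lists under Psme2 and Psme2b together were kept out of the results, since no gene can be named from them. The brighter of them was at 535.7 and 1019.1 on the Vbeta5 arrays, 456.5 and 374.6 in the overnight control, 365.5 and 511.7 with Valpha2, and 364.4 and 575.0 in the control, so that 1 Vbeta5 array stood above the rest and the other overlapped the control.

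Psme3 was not alone in following the array number. The array numbered 1 was the brighter in all 4 groups in 4 member probe sets (Psmb2, Psmc5, Psme1 and Psme3) and the dimmer in all 4 groups in 9 (Psma4, Psma7, Psmb4, Psmc1, Psmc3, Psmd11, Psmd13, Psmd6 and Psme4), against 11.8% and 12.3% of the 8281 tested probe sets. What the number stands for is not stated.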
